A study of Homo sapiens with 6 samples.

Results

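The NR4A orphan nuclear receptors NR4A1 (NUR77), NR4A2 (NURR1) and NR4A3 (NOR1) were followed by gene symbol, 3 genes of 35130 gene names listed per library. They were chosen by name after their TPM values and their NEN against DMSO differences in these libraries had been seen, so those values are a description and carry no test. The RNA came from SK-N-BE(2), an established neuroblastoma line with amplified MYCN. The tested cells received 1 µM NEN for 24 h and the comparison cells received the solvent DMSO for 24 h, with 3 libraries in each group, which the labels call biological replicates. NEN is given in the labels by its abbreviation, which in published work stands for niclosamide ethanolamine, a mitochondrial uncoupler; that identity is background here. A single cell line was used in both groups, so the values hold for that line alone. Levels are TPM, a length-scaled relative abundance that keeps no record of sequencing depth.

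NR4A receptors are transcription factors whose ligand pocket is filled by bulky side chains, and their activity is set mainly by how much of each protein is made. Their genes are classic early response genes, switched on by cAMP through CREB and its CRTC coactivators, by calcium through MEF2 factors released from class IIa histone deacetylases, and by growth factor kinases. The proteins bind the element AAAGGTCA, called NBRE, as monomers and pair with RXR on other sites. In catecholamine-making neurons NR4A2 is known for control of the dopamine genes, and NR4A1 is known in thymocytes and tumour cells for roles in cell death and growth.

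Because the 3 genes encode closely related DNA-binding domains, it was checked whether their transcripts could be mistaken for each other. The coding transcripts of GENCODE release 29 shared 0 stretches of 31 bases between NR4A1 and NR4A2, 0 between NR4A1 and NR4A3, and 0 between NR4A2 and NR4A3. The longest identical coding runs of each pair are shown because they bound how far reads could be confused. All 3 lie in the part that codes for the zinc fingers of the DNA-binding domain, and they are 20, 17 and 20 bases long in the order given.
NR4A1 and NR4A2: gctgtgtgtggggacaacgc
NR4A1 and NR4A3: gagggctgcaagggctt
NR4A2 and NR4A3: gcaaataaaaactgcccagt
An antisense noncoding gene overlaps NR4A1 in RefSeq. It has no row of its own in the tables used here, and no strand setting is given in the sources used here, so its reads cannot be told apart from those of NR4A1.

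The start regions of the genes are shown because CREB acts on such regions through the core element TGACG, which is in capitals on either strand. RefSeq windows (GRCh38.p14, a build other than the hg19 named for the files) of 300 bases, 250 before and 50 from an annotated start, were matched for 2 of the 3 members, in 3 windows. The NR4A3 window, chr9:99821635-99821934 on the plus strand, held 4 core elements, at positions -109, -91, -83 and -25 counted from the start at 0. The 2 NR4A1 windows, chr12:52022582-52022881 and chr12:52037465-52037764, both on the plus strand, held 0. Of 35116 such windows 24.6% held at least 1 core element and 0.313% held 4 or more. The full element TGACGTCA was in 0 of the 3 windows and in 1.85% of all windows. GENCODE gives 19 transcript starts for NR4A1, in a gene that runs from chr12:52022832 to chr12:52059507. Only the 2 windows above were searched, so the absence of the core element holds for them alone.
NR4A3: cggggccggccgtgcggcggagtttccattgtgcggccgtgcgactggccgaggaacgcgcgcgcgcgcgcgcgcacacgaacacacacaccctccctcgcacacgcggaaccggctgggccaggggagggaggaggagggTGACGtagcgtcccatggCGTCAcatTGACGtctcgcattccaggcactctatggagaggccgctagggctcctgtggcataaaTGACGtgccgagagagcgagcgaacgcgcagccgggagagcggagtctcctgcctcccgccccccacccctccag
NR4A1, first window: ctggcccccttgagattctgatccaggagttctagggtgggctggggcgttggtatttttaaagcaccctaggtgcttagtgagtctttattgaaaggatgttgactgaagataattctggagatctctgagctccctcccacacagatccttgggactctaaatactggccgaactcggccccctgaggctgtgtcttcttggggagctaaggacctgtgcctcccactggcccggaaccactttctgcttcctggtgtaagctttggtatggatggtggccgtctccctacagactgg
NR4A1, second window: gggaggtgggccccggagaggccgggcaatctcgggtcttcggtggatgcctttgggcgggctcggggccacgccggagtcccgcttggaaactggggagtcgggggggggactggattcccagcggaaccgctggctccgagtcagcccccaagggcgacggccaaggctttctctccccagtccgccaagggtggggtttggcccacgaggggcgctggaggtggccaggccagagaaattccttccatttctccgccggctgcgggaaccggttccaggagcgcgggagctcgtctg

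NR4A1 was the abundant member of the family and the only one whose groups stood apart. NR4A1 had 31.1, 27.2 and 27.9 TPM in NEN replicates 1 to 3, against 15.8, 15.6 and 12.5 TPM in DMSO replicates 1 to 3. All 3 NEN libraries lay above all 3 DMSO libraries, with a gap between 27.2 and 15.8 TPM. The means were 28.7 ± 2.1 TPM in NEN cells and 14.6 ± 1.8 TPM in DMSO cells (SD, n = 3 each), a ratio of 1.97. On the log2(TPM + 1) scale, which has a pseudocount of 1 and understates the change of low genes, the difference was 0.93 ± 0.11 (SE). Over all 12576 genes tested, 21.8% also had every NEN library above every DMSO library. By limma's adjusted p at 0.05, 13.5% rose, 16.5% fell and 30.0% changed in either direction. A log2 difference at or above that of NR4A1 was found for 329 tested genes, 2.62% of them. Among the 4400 tested genes with a DMSO mean within a factor of 2 of NR4A1's own it was found for 73 genes, 1.66%. In bulk RNA, a change per cell and a change in the share of cells that express the gene cannot be told apart.

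NR4A2, the receptor known for the dopamine neuron programme, was listed near the floor. It had 0.689, 1.00 and 0.559 TPM in the NEN libraries, against 0.586, 0.560 and 0.856 TPM in the DMSO libraries. The groups overlapped, and the lowest value of all was NEN replicate 3. Means were 0.75 ± 0.23 TPM in NEN cells and 0.67 ± 0.16 TPM in DMSO cells (SD, n = 3 each), with a log2 difference of 0.07. NR4A3, a receptor also known as a fusion partner in a soft tissue sarcoma, had 0.137, 0.279 and 0.109 TPM in the NEN libraries, against 0.140, 0.201 and 0.139 TPM in the DMSO libraries. Here too the groups overlapped, and NEN replicate 2 alone lay above the DMSO libraries. Means were 0.175 ± 0.092 TPM in NEN cells and 0.160 ± 0.036 TPM in DMSO cells (SD, n = 3 each), with a log2 difference of 0.02. Both genes lay below the minimum mean of 1 TPM over the 6 libraries, so 1 of the 3 members entered the fit over all genes. NEN replicate 2 was the highest NEN library for NR4A2 and NR4A3 and the lowest for NR4A1.

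**Figure D1:**
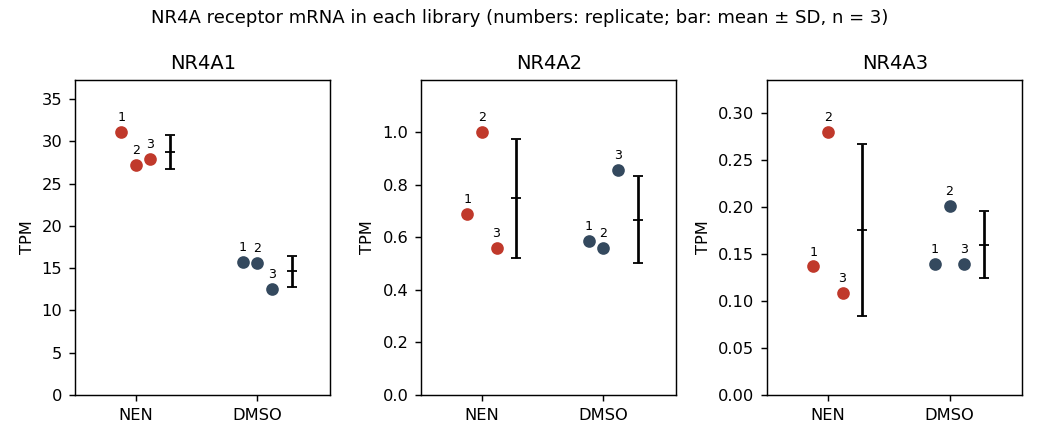
TPM of NR4A1, NR4A2 and NR4A3 (vertical axes, each from 0) in the 3 NEN libraries and the 3 DMSO libraries, numbered by replicate, with the mean ± SD of each group beside the points. The NEN libraries of NR4A1 sit at 27.2 TPM or more, above all DMSO libraries, while the groups overlap for NR4A2 and NR4A3.

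The order NR4A1, NR4A2, NR4A3 was the same in all 6 libraries. The level of NR4A1 was 45.1, 27.2 and 49.9 times that of NR4A2 in the NEN libraries, against 26.9, 27.8 and 14.6 times in the DMSO libraries. NEN replicate 2 lay within the range of the DMSO libraries in this ratio. The level of NR4A2 was 5.04, 3.58 and 5.14 times that of NR4A3 in the NEN libraries, against 4.20, 2.78 and 6.16 times in the DMSO libraries, and here the groups overlapped. NR4A1 made up 97.4%, 95.5% and 97.7% of the summed TPM of the family in NEN cells, against 95.6%, 95.3% and 92.6% in DMSO cells. The lowest NR4A2 value, 0.559 TPM, was above the highest NR4A3 value, 0.279 TPM.

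Set beside the other 45 human nuclear receptors, NR4A1 moved up the order of levels. It ranked 7, 6 and 8 of 48 in the NEN libraries, against 10, 10 and 12 in the DMSO libraries. Its neighbours in NEN cells were NR2C2, at 29.7 ± 5.3 TPM, and the liver X receptor gene NR1H2, at 27.0 ± 1.8 TPM, neither separated from NR4A1 by more than their spread. In DMSO cells the gene above NR4A1 was NR1H2, at 17.8 ± 1.9 TPM, with each of its DMSO libraries above those of NR4A1. The gene below was the fatty acid receptor gene PPARD, at 14.5 ± 1.8 TPM, within the spread. NR4A2 ranked 28 by its mean in NEN cells and 27 in DMSO cells, and NR4A3 ranked 34 and 33. Of the 45, 24 were tested, of which 10 rose and 1 fell, and 21 lay below the filter. That is 45.8% of the tested genes called, beside 30.0% of all genes tested, of which 13.5% rose and 16.5% fell. Their median log2 difference was 0.25, beside -0.02 for all genes tested.

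The receptor that rose most was NR1D1, the clock repressor REV-ERB alpha, at 21.7 ± 2.7 TPM in NEN cells and 6.29 ± 0.87 TPM in DMSO cells, a log2 difference of 1.64 ± 0.14 (adjusted p = 0.000485). On the log2(TPM + 1) scale it was the only receptor outside the family with a larger difference than NR4A1. Its relative NR1D2 differed by 0.89 ± 0.11 (adjusted p = 0.00175), the thyroid hormone receptor gene THRA by 0.81 ± 0.09 (adjusted p = 0.00102) and the orphan receptor gene ESRRA by 0.83 ± 0.10 (adjusted p = 0.00177). The order of NR1D2 and NR4A1 depends on the scale, as their ratios of means were 2.00 and 1.97. With a pseudocount of 0.1 their log2 differences were 0.99 and 0.98. NR1H2 differed by 0.58 ± 0.10 (adjusted p = 0.00654). THRA and NR1D1 overlap on opposite strands, so part of their reads cannot be assigned with certainty. The receptor that fell was PGR, the progesterone receptor gene, at 1.83 ± 0.71 TPM in NEN cells and 6.03 ± 2.0 TPM in DMSO cells (-1.30 ± 0.28, adjusted p = 0.0141), named after its value was seen. The count of 10 receptors that rose was 6 without DMSO replicate 2 or without NEN replicate 2, and PGR was not called without DMSO replicate 2.

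**Figure D2:**
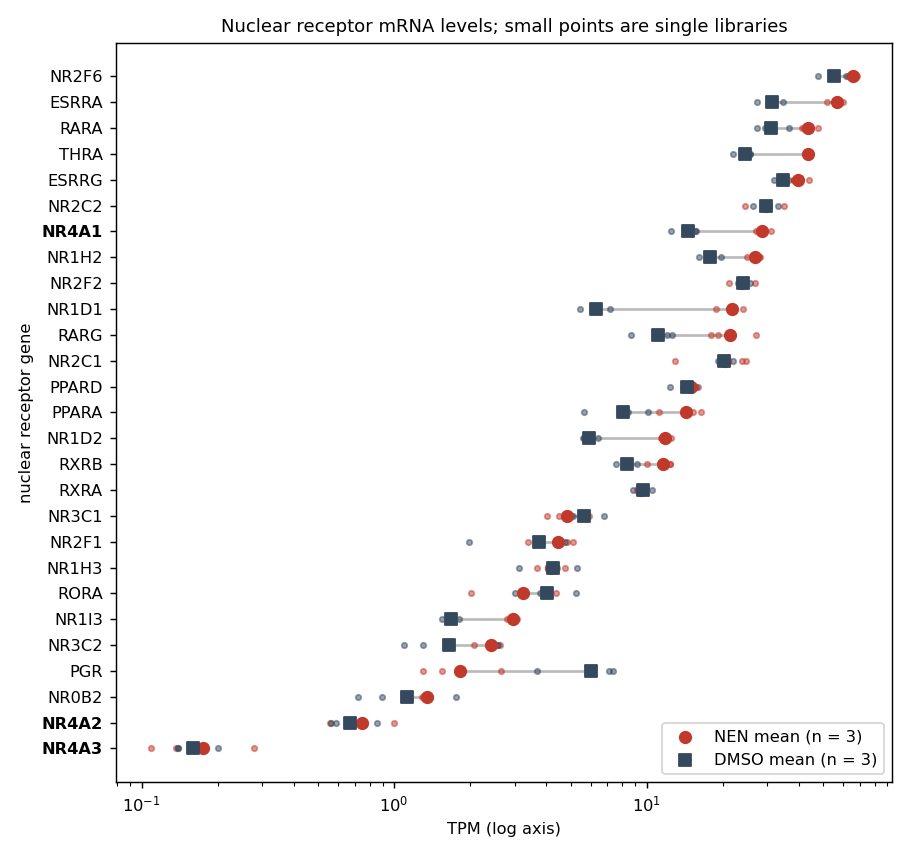
Mean TPM (log axis) in NEN cells (circles) and DMSO cells (squares) for the nuclear receptors tested and for NR4A2 and NR4A3, with small points for single libraries, ordered by the NEN mean. NR4A1 stands at 28.7 TPM in NEN cells and 14.6 TPM in DMSO cells, and the other 2 members are at the bottom below 1 TPM.

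The genes whose profile over the 6 libraries lay closest to that of NR4A1 were GDPD5, RAB31, LRP1, PNRC1 and CAMLG. Likeness was the root mean square difference between log2(TPM + 1) values, each taken from its own DMSO mean, over 11867 genes compared. It was 0.037 for GDPD5, a membrane phosphodiesterase that releases GPI-anchored proteins, and 0.047 for RAB31, a GTPase of membrane traffic. For LRP1, an endocytic receptor, it was 0.061, for PNRC1, a nuclear receptor coactivator, 0.078, and for CAMLG, a membrane protein of the endoplasmic reticulum, 0.083. The median over the genes compared was 0.71. GDPD5 had 9.95, 8.60 and 8.97 TPM in the NEN libraries, against 4.63, 4.75 and 3.36 TPM in the DMSO libraries. Like NR4A1, it was highest in NEN replicate 1 and lowest in DMSO replicate 3, a likeness that follows from how the gene was picked. PNRC1 had 30.5, 27.1 and 29.4 TPM in the NEN libraries, against 14.7, 14.2 and 12.7 TPM in the DMSO libraries, levels close to those of NR4A1.

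**Figure D3:**
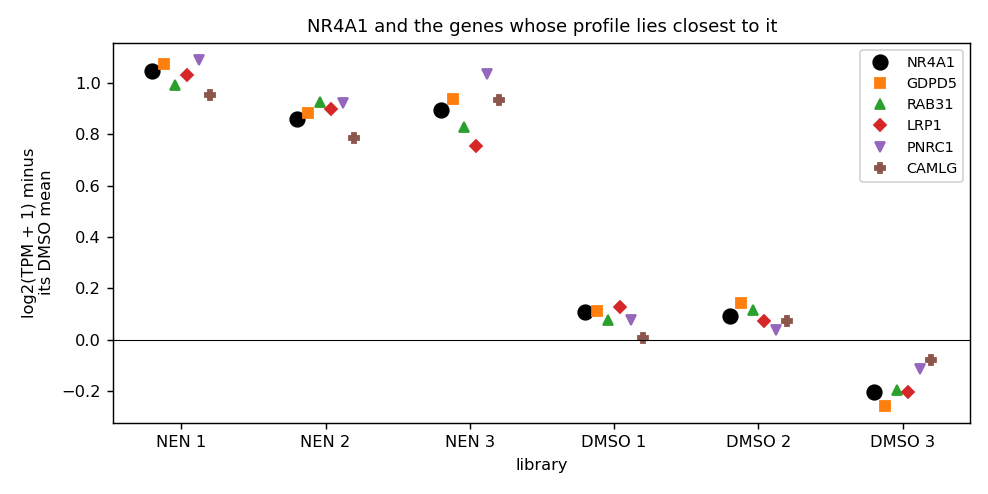
Difference of log2(TPM + 1) from the DMSO mean (vertical axis) in each library for NR4A1 (large black circles) and the genes closest to it. All NEN points lie above all DMSO points, and DMSO replicate 3 is the lowest library of each gene. The genes were picked for their likeness to NR4A1 in these same libraries.

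Of 22 genes of the cAMP route to NR4A transcription, 21 were tested, of which 2 rose and 3 fell. That is 23.8% called, beside 30.0% of all genes tested, and the median log2 difference was 0.02. CREB1, the factor that binds the core element, had 38.0 ± 8.8 TPM in NEN cells and 37.9 ± 1.8 TPM in DMSO cells (-0.02 ± 0.16, adjusted p = 0.942). CREM, a related factor whose short form represses the same sites, had 10.2 ± 2.0 TPM in NEN cells and 13.5 ± 1.2 TPM in DMSO cells (adjusted p = 0.0930, and 0.0434 without NEN replicate 3). PKIA, an inhibitor of protein kinase A, fell by 0.62 ± 0.10 (adjusted p = 0.00391), the coactivator gene CREBBP by 0.41 ± 0.08 (adjusted p = 0.00836) and the kinase regulatory subunit gene PRKAR2B by 0.44 ± 0.09 (adjusted p = 0.00890). PDE4B, a phosphodiesterase that breaks down cAMP, rose by 0.83 ± 0.21 (adjusted p = 0.0247). That call was lost with no filter (0.0542) and without DMSO replicate 2 (0.0640), DMSO replicate 3 (0.0726) or NEN replicate 1 (0.0505). CRTC3, a CREB coactivator, rose by 0.52 ± 0.15 (adjusted p = 0.0413). It was not called with no filter (0.0855), limma's plain settings (0.0556), or without DMSO replicate 2 (0.0924), DMSO replicate 3 (0.114), NEN replicate 1 (0.112) or NEN replicate 3 (0.125).

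Of the calcium, MEF2 and calcineurin genes 5 rose and 3 fell among 21 tested of 27, 38.1% called beside 30.0% of all genes tested, with a median of 0.21. HDAC5, a class IIa deacetylase that holds MEF2 factors inactive, had 89.2, 74.9 and 88.2 TPM in the NEN libraries, against 39.8, 33.9 and 30.8 TPM in the DMSO libraries. The groups did not overlap, and the log2 difference was 1.25 ± 0.11 (adjusted p = 0.000611). MEF2D, a factor that binds the NR4A1 promoter in T cells, had 39.6, 36.3 and 44.4 TPM in the NEN libraries, against 18.3, 22.9 and 22.2 TPM in the DMSO libraries. It rose by 0.89 ± 0.12 (adjusted p = 0.00196), the same direction as HDAC5. HDAC4, a further class IIa deacetylase, fell by 0.46 ± 0.11 (adjusted p = 0.0206), while HDAC7, another, rose by 0.60 ± 0.10 (adjusted p = 0.00451). HDAC9, of the same class, rose by 0.65 ± 0.08 (adjusted p = 0.00179) and CAMK2D, a calcium-dependent kinase, by 0.68 ± 0.08 (adjusted p = 0.00124). CALM2, which encodes calmodulin, fell to 1329 ± 12 TPM in NEN cells, against 1841 ± 76 TPM in DMSO cells (adjusted p = 0.000993). Without DMSO replicate 1 the count of falls was 5.

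Kinases that act on NR4A proteins moved both ways, with 5 up and 3 down of 15 tested, 53.3% called beside 30.0% of all genes tested, and a median of -0.01. RPS6KA5, 1 of the 5, averaged 2.39 TPM in NEN cells and 0.855 TPM in DMSO cells and so passed the filter only through its NEN level. MAP2K5, the activator of ERK5, rose by 0.68 ± 0.13 (adjusted p = 0.00755). PRKDC, the DNA-dependent protein kinase, fell by 0.42 ± 0.07 (adjusted p = 0.00437). MAPK3, which encodes ERK1, rose by 0.43 ± 0.11 (adjusted p = 0.0240), a call lost with no filter (0.0539) and on leaving out DMSO replicate 3 (0.0507), NEN replicate 2 (0.0791) or NEN replicate 3 (0.0633). RPS6KA3, a ribosomal S6 kinase of the type that phosphorylates NR4A1, fell by 0.41 ± 0.10 (adjusted p = 0.0237). Without DMSO replicate 2 it had 0.0673, without DMSO replicate 3 it had 0.0748, and without NEN replicates 1, 2 or 3 it had 0.0624, 0.0671 and 0.0660. Rises numbered 2 when DMSO replicate 3 or NEN replicate 2 or 3 was left out, and 3 when DMSO replicate 2 or NEN replicate 1 was. Falls numbered 1 when DMSO replicate 2 or 3 or NEN replicate 3 was left out.

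Partners of the NR4A proteins gave 5 rises and 4 falls among 20 tested of 24, 45.0% called beside 30.0% of all genes tested, with a median of 0.07. RXRA, the most abundant RXR in DMSO cells, had 9.49 ± 0.30 TPM in NEN cells and 9.70 ± 0.83 TPM in DMSO cells (adjusted p = 0.884). RXRB had 11.6 ± 1.4 TPM in NEN cells and 8.38 ± 0.80 TPM in DMSO cells (0.42 ± 0.13, adjusted p = 0.0435). The RXRB call was lost with no filter (0.0802), quantile normalization (0.0590), and without DMSO replicate 1 (0.102), 2 (0.0946) or 3 (0.0610) or NEN replicate 2 (0.131) or 3 (0.130). RXRG was listed at 0 in all 6 libraries. SFPQ, a nuclear RNA-binding protein and corepressor, fell to 190.2 ± 5.2 TPM in NEN cells, against 363.7 ± 11.5 TPM in DMSO cells (-0.93 ± 0.05, adjusted p = 0.000215). PML, the organizer of nuclear bodies, rose by 0.75 ± 0.13 (adjusted p = 0.00550), and the corepressor gene NCOR1 fell by 0.43 ± 0.08 (adjusted p = 0.00815).

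BCL2, the survival protein that NR4A1 binds at mitochondria, rose by 0.48 ± 0.13 (adjusted p = 0.0282), a call lost with no filter (0.0567) and without DMSO replicate 2 (0.0735), DMSO replicate 3 (0.0727), NEN replicate 1 (0.0787), NEN replicate 2 (0.0607) or NEN replicate 3 (0.0858). The count of partner genes that rose was 3 without DMSO replicate 1 or NEN replicate 1, 2 without DMSO replicate 2 or 3, and 1 without NEN replicate 2 or 3. Falls numbered 2 when DMSO replicate 2 or NEN replicate 2 or 3 was left out.

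Genes reported as NR4A targets in catecholamine neurons went in opposite directions. Of 14, 8 were tested, of which 2 rose and 4 fell, 75.0% called beside 30.0% of all genes tested, and the median was -0.23. TH, which makes the first step of catecholamine synthesis, had 13.6, 13.4 and 15.9 TPM in the NEN libraries, against 7.04, 8.54 and 7.31 TPM in the DMSO libraries (0.82 ± 0.12, adjusted p = 0.00324). DDC, the next enzyme, fell to 486.2 ± 15.7 TPM in NEN cells, against 664.6 ± 13.1 TPM in DMSO cells (adjusted p = 0.00107). DBH, the enzyme after it and not in the target list, rose by 0.41 ± 0.05 (adjusted p = 0.00223). The GDNF receptor gene RET fell by 0.69 ± 0.05 (adjusted p = 0.000295), the dopamine receptor gene DRD2 by 0.56 ± 0.10 (adjusted p = 0.00590) and NRP1, a guidance receptor gene, by 0.96 ± 0.09 (adjusted p = 0.000625). The dopamine transporter gene SLC6A3 and the vesicle transporter gene SLC18A2 were below 1 TPM on average. The count of rises was 1 without DMSO replicates 2 or 3 or without any one of the NEN libraries.

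An NBRE was in the start windows of 1 gene of the 9 of this list with a window, DDC, and 1 gene of the 13 in the fuel list, ENO3, while 1.22% of all windows and 1.49% of all genes with windows held one. It was also in 1 of 6 genes of the steroid and pituitary list, 0 of 10 of the growth list and 1 of 20 early genes. The sites are shown with the NBRE in capitals, on the strand that reads AAAGGTCA. That of DDC lies at chr7:50565475-50565502 on the plus strand and that of ENO3 at chr17:4950936-4950963 on the minus strand (GRCh38.p14). DDC is transcribed from the minus strand and ENO3 from the plus strand.
DDC: tgatggtgacAAAGGTCAaggaaatctt
ENO3: cccccttaccAAAGGTCAactactatcc
ENO3, the muscle enolase gene, had 25.6 ± 5.6 TPM in NEN cells and 17.6 ± 2.2 TPM in DMSO cells (adjusted p = 0.0565). ENO3 was called at a mean of at least 5 TPM (0.0447), after median-ratio scaling (0.0409) or quantile normalization (0.0415), and without NEN replicate 2 (0.0281).

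Of 14 growth and cell death targets, 8 were tested, of which 5 fell and 2 rose, 87.5% called beside 30.0% of all genes tested, with a median of -0.45. E2F1, a driver of S phase entry, fell by 0.72 ± 0.07 (adjusted p = 0.000625) and CCND1, which encodes cyclin D1, by 0.67 ± 0.07 (adjusted p = 0.00114). BIRC5, which encodes survivin, fell by 0.48 ± 0.06 (adjusted p = 0.00147), the cell cycle inhibitor gene CDKN1A by 0.51 ± 0.08 (adjusted p = 0.00358) and the ubiquitin ligase gene SKP2 by 0.43 ± 0.07 (adjusted p = 0.00422). CDKN1A, an inhibitor, thus had the same direction as the growth genes. The 5 falls stayed at 5 on leaving out each library, while the 2 rises became 1 without DMSO replicates 2 or 3 or without any one of the NEN libraries.

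In the steroid and pituitary list 3 of 10 genes passed the filter, 1 of them only through its NEN level. HSD3B2, a steroid dehydrogenase gene, had 3.08 ± 0.68 TPM in NEN cells and 0.35 ± 0.34 TPM in DMSO cells. This is the gene that passed only through NEN cells, so it is described without a test, and its log2 difference ran between 0.59 and 3.14 with the pseudocount. AKR1C1, an aldo-keto reductase gene, rose by 0.56 ± 0.10 (adjusted p = 0.00528). Both have near-identical relatives, HSD3B1 and AKR1C2, so their reads may be shared. CRH, a stress hormone gene, had 5.44 ± 1.10 TPM in NEN cells and 7.37 ± 1.00 TPM in DMSO cells (adjusted p = 0.123). POMC was listed at 0 in the NEN libraries and averaged 0.070 TPM in the DMSO libraries. Of the fuel metabolism list 9 of 17 genes were tested and 1 rose, 11.1% called beside 30.0% of all genes tested, with a median of 0.26. That was PFKM, the muscle phosphofructokinase gene, by 0.38 ± 0.10 (adjusted p = 0.0276). Its call was lost with no filter (0.0636), limma's plain settings (0.0603), and without DMSO replicate 2 (0.0561), DMSO replicate 3 (0.0731), NEN replicate 2 (0.0881) or NEN replicate 3 (0.0898). The branching enzyme gene GBE1 had an adjusted p of 0.0557 and passed at a mean of at least 5 TPM (0.0498), after median-ratio scaling (0.0318) or quantile normalization (0.0240), and without DMSO replicate 2 (0.0454). FBP2, a fructose bisphosphatase gene, had an adjusted p of 0.381, and LPIN1, a lipin gene, of 0.507.

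The cAMP-responsive early genes, which are induced together with the NR4A genes in many cells, moved both ways. Of 22, 15 were tested, of which 4 rose and 4 fell, 53.3% called beside 30.0% of all genes tested, with a median of 0.09. The 4 that rose include CREBRF, which passed the filter only through its NEN level. EGR1, an early zinc finger factor, had 10.0, 9.80 and 9.88 TPM in the NEN libraries, against 22.7, 23.6 and 23.3 TPM in the DMSO libraries. Its groups lay apart in the direction opposite to NR4A1, and the log2 difference was -1.15 ± 0.08 (adjusted p = 0.000323). JUN fell by 0.58 ± 0.10 (adjusted p = 0.00576), while FOS, its partner, had 1.80 ± 0.47 TPM in NEN cells and 1.17 ± 0.42 TPM in DMSO cells (adjusted p = 0.298). VGF, a secreted neuronal protein, had 732.8, 670.3 and 696.6 TPM in the NEN libraries, against 273.0, 292.9 and 303.0 TPM in the DMSO libraries (1.27 ± 0.06, adjusted p = 0.000215).

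CREBRF, a regulator of CREB3 factors, had 2.54 ± 0.55 TPM in NEN cells and 0.46 ± 0.20 TPM in DMSO cells, and is described without a test. Its log2 difference was 1.28 and ran between 0.46 and 2.28 with the pseudocount. ARC, a synaptic early gene, rose by 0.76 ± 0.17 (adjusted p = 0.0141), and its adjusted p was 0.0506 without NEN replicate 2. The count of early genes that fell was 2 without DMSO replicate 1, DMSO replicate 3 or NEN replicate 2. Of the 20 early genes with a start window, 17 held TGACG in at least 1 window, beside 28.4% of all genes with windows. The list was drawn up as genes that respond to cAMP, so a high share may follow from that choice.

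**Figure D4:**
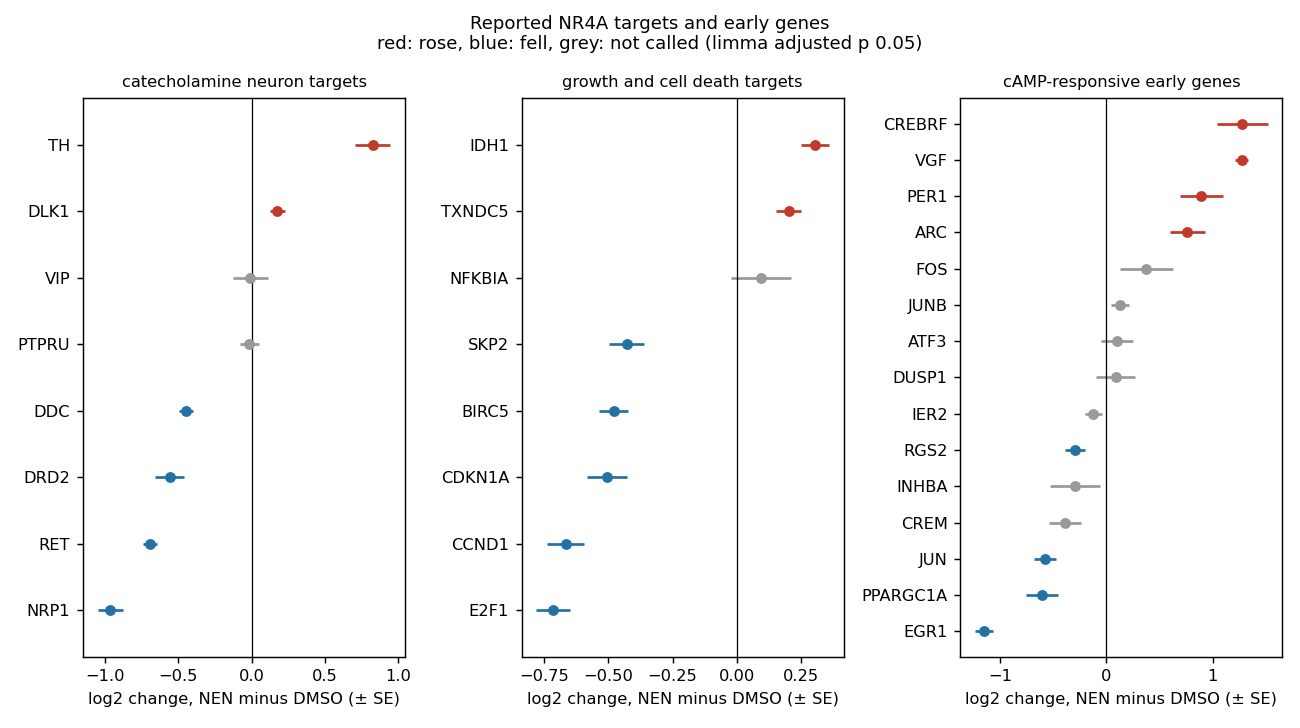
Log2 difference, NEN minus DMSO, with its SE for tested genes of the catecholamine neuron and growth target lists and of the cAMP-responsive early gene list; red genes rose, blue genes fell and grey genes were not called. TH at 0.82 and NRP1 at -0.96 mark the ends of the first list, and CREBRF at 1.28 and EGR1 at -1.15 those of the last. CREBRF, though drawn red, passed the filter only through its NEN level and is described without a test. VGF at 1.27 lies next to it.

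The libraries listed between 17285 and 18041 genes above 0, and their TPM summed to between 929054 and 933500. Neuroblastoma markers were present in every library, and all 9 were tested. Their summed level was 5975 to 6232 TPM in NEN cells and 4942 to 5817 TPM in DMSO cells. PHOX2A, a lineage factor, rose by 0.80 ± 0.06 (adjusted p = 0.000295), HAND2, another, by 0.28 ± 0.05 (adjusted p = 0.00767), and CHGA, a granule protein, had an adjusted p of 0.425. MYCN rose by 0.33 ± 0.08 (adjusted p = 0.0169), whose adjusted p was 0.0503 under limma's plain settings and 0.0632 when NEN replicate 1 was left out. Of 16 markers of leukocytes, endothelium, fibroblasts, epithelium, red cells and hepatocytes, 10 were under 1 TPM in every library, and the T cell gene CD3E, the globin gene HBB and the keratin gene KRT5 were at 0. Their summed level was 5.71 to 15.1 TPM in NEN cells and 9.89 to 12.3 TPM in DMSO cells, so the groups overlapped. The 4 of them that were tested (DCN, EPCAM, KRT18 and COL1A1) had adjusted p between 0.274 and 0.943.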

How the data were processed

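RNA-seq of 6 SK-N-BE(2) libraries was used, 3 NEN and 3 DMSO, grouped by the labels. Reads were quantified with kallisto with hg19 named as build, per the submitters' processing notes. Neither versions nor a strand setting could be taken from the labels. The authors deposited TPM per gene name for each library; TPM keep no depth, so counting intervals were not computed. PolyA capture and removal of rRNA are both mentioned in the labels.

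For 12576 genes averaging 1 TPM or more across all libraries, log2(TPM + 1) was fitted in limma 3.58.1 (R 4.3.3), with group as the only term and with trended, robust variances. Two-sided p-values were adjusted by Benjamini-Hochberg over these genes and called at 0.05, and the code was tested on simulated data. The p-values set the group difference against the spread between these libraries of a single cell line, with variances moderated over all genes tested. The members and the 10 gene lists around them were chosen with earlier results of these data known, so lists are described by counts and medians. All 203 symbols of the lists were found. RXR and NR0B genes, CREM, SIK1 and TH are in more than 1 list. Some genes of the lists are counted but not reported here by name.

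Named genes were the members, RXRA, RXRB, RXRG, TH, DDC, DBH, RET, POMC, FOS, EGR1, CREB1 and CREM. Also named were up to 5 per list with the smallest adjusted p, and the 5 closest to NR4A1. PGR, SLC6A3, SLC18A2, PPARD, NR2C2, CD3E, HBB, KRT5, HSD3B1, AKR1C2, HDAC4, HDAC7, RPS6KA5 and CHGA were named after their values were seen. Promoter windows came from RefSeq (GRCh38.p14) and transcripts from GENCODE release 29. Figures used matplotlib 3.10.9 in Python 3.11.15. Also tried were leaving out single libraries, a replicate block, other filters, scalings, pseudocounts and limma's plain settings.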

Additional observations from a re-analysis of the deposited data

How the results depend on the processing

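The log2 difference of NR4A1 was 0.93 and lay between 0.78 (pseudocount 5) and 0.99 over 14 alternatives, and between 0.83 and 0.99 on leaving out each library. That of NR4A2 ranged from -0.03 to 0.15 and that of NR4A3 from -0.05 to 0.06 on leaving out each library, so their direction depends on single libraries. The genes called over the whole table numbered 3773, and 2582 to 3468 without 1 library. Those that rose numbered 1699, and 1063 (without NEN replicate 1) to 1554 without 1 library. The calls among the genes of the lists numbered 64, and 46 to 65 over all alternatives. No share was computed for the pooled lists, so this count cannot be set beside that of all genes. It includes HSD3B2, CREBRF and RPS6KA5, which passed the filter only through their NEN level. In the main fit the share called ran from 11.1% (fuel metabolism) to 87.5% (growth and cell death) over the 10 lists, beside 30.0% of all genes tested. Of 66 named genes in the fit outside the family, 53 kept their call in every alternative that could be run and 13 did not. Most were picked for a small adjusted p or for likeness to NR4A1 in these same libraries, which favours stable calls. The 66 include HSD3B2 and CREBRF, which are described without a test. The replicate number pairs nothing in the labels, and same-numbered libraries did not deviate together (r = 0.012, -0.0076 and -0.028 over 12576 genes). With the replicate block 2977 genes were called, and 47 among the lists; CRTC3 (adjusted p = 0.0736), RXRB (0.0542), MAPK3 (0.0570), RPS6KA3 (0.0575), BCL2 (0.0543) and PFKM (0.0618) were not. TPM hold no counts, so the precision of the NR4A2 and NR4A3 levels, all at or below 1.00 TPM, is not known.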

Other observations

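The 3' untranslated regions of the members were searched for ATTTA, the core of the AU-rich elements that shorten the life of many early response mRNAs. In the longest such region among the coding transcripts of GENCODE release 29, NR4A1 held 3 in 563 bases (5.33 per kb), NR4A2 held 4 in 1312 bases (3.05) and NR4A3 held 10 in 3024 bases (3.31). Genes whose region differed in length by at most 25%, longer over shorter, were set beside each member. Of these, 13.6% held at least as many as NR4A1, 31.5% at least as many as NR4A2 and 26.1% at least as many as NR4A3. The longer element TTATTTATT was in 0 of the 3 regions and in 8.16% of 19115 genes with such a region. Among the genes of like length it was in 3.08% for NR4A1, 6.79% for NR4A2 and 14.0% for NR4A3.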
